A study of Mus musculus with 18 samples.

Results

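Mice with 1 MommeD45 (D45) allele of Klf1 beside a wild-type allele (WT/D45) were compared with mice carrying wild-type alleles only (WT/WT), in 6 of the 18 libraries of the series. The members were the 3 WT/D45 and 3 WT/WT libraries, chosen by the genotype in the labels. Each library held RNA of erythroblasts sorted from the spleen of a mouse by 2 surface markers, CD71 (the receptor for transferrin) and TER119 (present on red cells as they mature). The other genotypes, used here for the shared fit and as side-by-side values, were D45/D45 (3 libraries), WT/KO (5 libraries, KO being a knockout allele) and D45/KO (4 libraries), and the design text calls the replicates biological. D45 is a missense allele, and the series title places such changes in linker-2 of the protein. Strain, age and the part of Klf1 missing from the KO allele are not stated in the labels. The question posed by this pair of genotypes was what a single D45 allele does when a normal allele is present, that is, whether it acts dominantly.

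Klf1 encodes a zinc finger transcription factor that is largely restricted to red cell precursors and activates genes of globin synthesis, haem synthesis, the membrane skeleton, membrane transport and surface antigens. It binds CACC-type elements in promoters and enhancers through its fingers, and the linkers between fingers help set how the fingers lie along the DNA. A missense allele can still make protein, unlike a null allele, so the heterozygotes of these 2 kinds of allele need not look alike.

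Total counts ran from 20.7 to 23.5 M (M stands for 1000000) in WT/WT and from 15.8 to 56.3 M in WT/D45. Levels are given as CPM, counts per 1000000 after TMM scaling, a correction for differences in RNA composition. Replicate 1 of both genotypes stood apart: the mean log2 CPM of 17 B cell markers was 6.11 in WT/WT replicate 1 and 6.28 in WT/D45 replicate 1, and between -1.47 and -0.06 in the other 4 libraries. Globin transcripts took 9.91% and 10.1% of counts in those first replicates, 37.8% and 47.2% in WT/WT replicates 2 and 3, and 35.7% and 18.7% in WT/D45 replicates 2 and 3. The adult alpha globin genes Hba-a1 and Hba-a2 had too few counts to be tested, so this share is not that of all globin RNA. Why their counts were low was not tested. The scaling factor of WT/WT replicate 3, at 0.366, was the lowest of the 6. Of the sort markers, Tfrc (CD71) was at 1421, 3162 and 3543 CPM in WT/WT and 1205, 3863 and 3833 CPM in WT/D45. All 6 libraries had 605 to 1107 CPM of Xist and at most 0.317 CPM of any of 4 Y-linked genes, so these genes did not divide the 2 genotypes.

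No gene differed between WT/D45 and WT/WT after adjustment. Of 13405 genes tested with edgeR's quasi-likelihood test, 0 (0%) had a Benjamini-Hochberg adjusted p under 0.05, and the smallest adjusted p was 1. At an unadjusted p under 0.05 there were 194 genes, of which 140 (1.04% of those tested) were higher and 54 (0.403%) lower in WT/D45. By DESeq2 the count was also 0 (300 at that unadjusted p) and by limma-voom 0 (286). The median SE of a log2 fold change was 0.82, and in simulated counts with these means and library sizes (12887 genes) the test found 0% of seeded 2-fold changes, 14.9% of 4-fold changes and 50.9% of 8-fold changes, with 1 unchanged gene called. The simulated spread between libraries was that estimated in this fit, without a replicate block. Changes of 2-fold were therefore not detectable in this fit with that spread and replication. In 383 genes (2.86%) all 3 WT/D45 libraries lay above all 3 WT/WT libraries, and in 159 (1.19%) all lay below. This gave 70.7% of the non-overlapping genes on the higher side, against 59.5% with DESeq2 size factors and 83.3% with library totals alone. The median log2 fold change of all genes was 0.10, moved to 0.31 by library totals. Every direction given below for a gene is that of the estimate, and none of these genes passed the adjusted test across all 18 libraries.

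**Figure D1:**
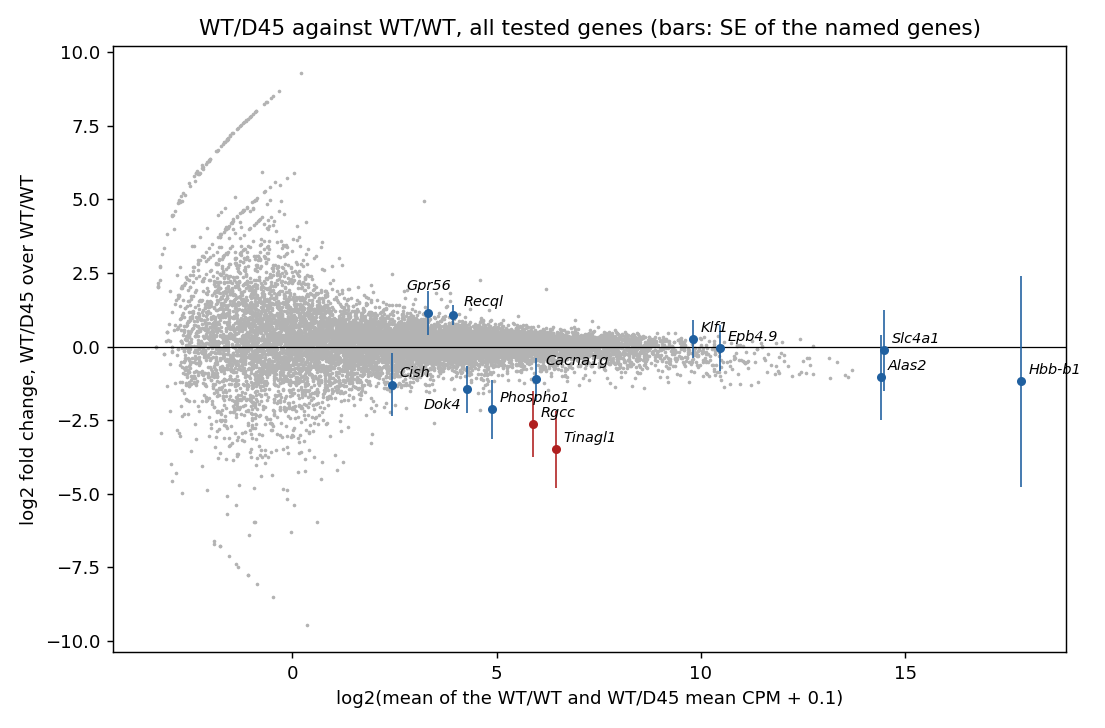
Log2 fold change of each tested gene in WT/D45 over WT/WT (y axis) against its log2 mean CPM (x axis); grey points are genes, and coloured points with bars are named genes with the SE of the estimate. Tinagl1 (-3.50) and Rgcc (-2.64), in red, lie below the cloud at their level, and Klf1, Epb4.9 and Slc4a1 lie near 0.

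Tinagl1, a secreted matricellular protein related to tubulointerstitial nephritis antigen, showed the widest gap at a sizeable level. It was at 89.2, 232 and 164.1 CPM in WT/WT replicates 1 to 3 and at 4.81, 21.99 and 16.3 CPM in WT/D45 replicates 1 to 3. The highest WT/D45 library was below the lowest WT/WT library, and the lowest of each genotype was the replicate rich in B cell transcripts. The mean was 162 ± 71.6 CPM (SD, n = 3) in WT/WT and 14.4 ± 8.76 CPM (n = 3) in WT/D45, an 11.3-fold difference, and between libraries of the same replicate number it was 18.6-fold, 10.6-fold and 10.04-fold. The log2 fold change was -3.50 ± 1.30 (SE), with an unadjusted p of 0.0156 and an adjusted p of 1 in edgeR. Among the 7661 genes with at least 5 CPM in the higher genotype, 1 had a larger absolute log2 fold change, and Tinagl1 stood at rank 10 by p. That 1 gene was Apol11a, named after its values were seen, at 0.627 ± 0.567 CPM in WT/WT and 18.02 ± 30.6 CPM in WT/D45 (n = 3 each), a mean smaller than its SD.

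Deviations of same-numbered WT/WT and WT/D45 libraries from their genotype means correlated at 0.71 for replicate 1, but at 0.22 and 0.12 for replicates 2 and 3. WT/D45 replicate 3 was closer to WT/WT replicate 2 (0.30), and the labels state no pairing. With the replicate number taken as a block, the fit to these 6 libraries called 1 gene of 11087 tested. It was Tinagl1 (log2 fold change -3.70 ± 0.27 SE, edgeR adjusted p = 0.0350). This call rests on a pairing of replicates 2 and 3 that neither the labels nor these correlations establish. The block in all 18 libraries called 0 genes and gave -3.48 ± 1.199 for Tinagl1. Across genotypes the number did not group like libraries. The mean log2 CPM of B cell markers was 6.80 and 6.94 in WT/KO replicates 2 and 3, but -1.43 and -0.06 in those of WT/WT. Within the libraries low in B cell markers alone, a comparison of 2 against 2 chosen after the data were seen, edgeR called 3 genes, Tinagl1 (-3.44 ± 0.35, adjusted p = 6.2e-05), Rgcc (-3.29 ± 0.48, adjusted p = 0.00796) and the unnamed transcript E130309D14Rik, which was higher. The fit to mice with an identifier of 200 or more holds the same 4 WT/WT and WT/D45 libraries beside a wider set of the other genotypes, and it called 0 genes (443 at an unadjusted p under 0.05; Tinagl1 -3.43 ± 1.31). Within the libraries of mice with an identifier under 200, 1 of each genotype with the spread taken from the other genotypes, edgeR called Tinagl1 (-4.199 ± 0.85, adjusted p = 0.0108) and Gpr56 (4.14 ± 0.88, adjusted p = 0.0183). Over the 23 other ways of fitting the data, the estimate for Tinagl1 stayed between -4.27 and -3.08, and its unadjusted p was under 0.05 in 22 of them. The exception was the edgeR fit without WT/D45 replicate 1, with an unadjusted p of 0.0512 and an adjusted p of 0.962.

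Across the genotypes Tinagl1 was graded. It was at 0.368, 0.643 and 1.29 CPM in D45/D45, between 0 and 4.39 CPM in the 5 WT/KO libraries and between 0 and 0.296 CPM in the 4 D45/KO libraries. All 3 WT/D45 libraries were above every library of these genotypes, the nearest being 4.81 CPM in WT/D45 against 4.39 CPM in WT/KO. The level in WT/D45 differed from the midpoint of WT/WT and D45/D45 on the log2 scale by 0.37 ± 1.02 (SE), a difference within its error. The effect of the D45 allele beside WT differed from its effect beside KO by 0.15 ± 1.37. The effect beside KO was measured near 0 counts, with 0 CPM in WT/KO replicates 2 and 3. A small difference here therefore does not show that the 2 effects were equal. Tinagl1 entered the named set because it had been called in other comparisons with the same WT/WT libraries, so its high WT/WT level is not independent evidence of the direction here.

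Because Klf1 binds CACC-type elements, promoters are shown for panel genes with lower estimates in WT/D45. This set comes from the panel and is not that of the lowest estimates over all genes. RefSeq sequences on build GRCm38.p6 were at hand for 3 of 5 genes looked up (Tinagl1, Rgcc and Phospho1, but not Dok4 or Cacna1g). The counts were made on mm9, a different build, and no coordinate of the counts was combined with these. Each line gives the 250 bases before an annotated start, 5′ to 3′ on the strand of the gene. Capitals mark every match to CCNCNCCC on either strand, with overlapping matches run together. The ranges are chr4:130175123-130175372 and chr4:130174803-130175052 for the 2 starts of Tinagl1 and chr14:79301636-79301885 for Rgcc (all on the minus strand), and chr11:95824250-95824499 for Phospho1 (plus strand).
Tinagl1 start 1: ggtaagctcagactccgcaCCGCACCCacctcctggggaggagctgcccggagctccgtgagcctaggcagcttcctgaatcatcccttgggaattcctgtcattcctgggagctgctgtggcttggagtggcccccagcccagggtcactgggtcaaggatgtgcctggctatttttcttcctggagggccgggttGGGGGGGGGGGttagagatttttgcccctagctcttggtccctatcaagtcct
Tinagl1 start 2: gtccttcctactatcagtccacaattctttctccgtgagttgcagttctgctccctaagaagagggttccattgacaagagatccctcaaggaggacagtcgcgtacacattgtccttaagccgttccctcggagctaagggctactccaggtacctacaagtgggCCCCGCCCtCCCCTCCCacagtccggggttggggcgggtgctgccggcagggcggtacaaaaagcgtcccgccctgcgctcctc
Rgcc: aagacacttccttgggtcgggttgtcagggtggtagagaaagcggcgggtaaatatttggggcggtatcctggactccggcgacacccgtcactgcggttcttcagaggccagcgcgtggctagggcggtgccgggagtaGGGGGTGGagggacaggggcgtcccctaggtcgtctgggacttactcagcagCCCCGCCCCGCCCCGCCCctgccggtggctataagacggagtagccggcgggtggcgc
Phospho1: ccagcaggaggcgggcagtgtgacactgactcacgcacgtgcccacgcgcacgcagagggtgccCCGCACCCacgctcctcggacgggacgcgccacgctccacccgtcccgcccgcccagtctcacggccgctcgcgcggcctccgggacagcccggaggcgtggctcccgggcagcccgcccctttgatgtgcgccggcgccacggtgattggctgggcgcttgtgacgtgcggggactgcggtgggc
The 2 Tinagl1 windows held 5 matches in 2 separate stretches, 1 of them a run of G, and 2 matches in 2 stretches. The Rgcc window held 4 matches in 2 stretches and the Phospho1 window 1 match. The narrower spelling CCACACCC, which CCNCNCCC includes, had 0 matches in any of the 4 windows on either strand. Of 32851 RefSeq promoters of the same length, 45.9% held CCNCNCCC and 3.2% held CCACACCC, so a CCNCNCCC match is common and says nothing by itself about binding.

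Among genes with at least 5 CPM in the higher genotype, 6 fell by more than 2 log2 units without overlap. Tinagl1 and Rgcc, a regulator of the cell cycle from the panel, were among these. Rgcc was at 36.1, 165.7 and 105 CPM in WT/WT and at 20.2, 13.5 and 15.6 CPM in WT/D45, with no overlap. The difference was 1.79-fold between the first replicates and 12.3-fold and 6.76-fold between the second and the third replicates, and the log2 fold change was -2.64 ± 1.13 (SE). Rgcc was at 0.167 to 1.43 CPM in D45/D45 and at 0.131 to 21.3 CPM in WT/KO. In the mouse identifiers under 200 alone the estimate was -0.82 ± 0.85, so the size of the Rgcc difference rested on the libraries low in B cell markers.

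Phospho1, a phosphatase of phosphocholine and phosphoethanolamine, was at 6.28, 42.2 and 95.8 CPM in WT/WT and 3.41, 17.1 and 12.4 CPM in WT/D45. The groups overlapped, but each WT/D45 library was below the WT/WT library of its number, and the log2 fold change was -2.14 ± 1.01. Dok4, a docking protein of tyrosine kinase signalling, was at 13.7, 46.2 and 25.3 CPM against 4.67, 15.4 and 11.004 CPM (-1.46 ± 0.79), 2.30-fold to 3.01-fold lower within each number. Cacna1g, a T-type calcium channel subunit, was at 44.6, 143 and 68.8 CPM against 13.8, 57.1 and 48.7 CPM (-1.10 ± 0.71), again lower within each number and with overlapping groups. Lats2, a kinase of the Hippo pathway picked after its values were seen, was at 41.6, 58.6 and 59.0 CPM against 18.2, 20.3 and 34.5 CPM without overlap (-1.12 ± 0.84). In D45/D45 these genes were lower than in any WT/D45 library: Lats2 at 0.429 to 6.26 CPM, Cacna1g at 2.65 to 4.42 CPM and Dok4 at 1.36 to 3.57 CPM. Phospho1 was at 0.442, 1.07 and 4.05 CPM in D45/D45, of which the highest exceeded the lowest WT/D45 library. In WT/KO the means were 12.8 CPM for Cacna1g, 4.09 CPM for Dok4 and 18.7 CPM for Lats2. These were below the WT/D45 means of 39.9, 10.4 and 24.3 CPM. The mean of Phospho1 was 11.3 CPM in WT/KO and 10.97 CPM in WT/D45. By these means the lower levels were not particular to the D45 allele.

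**Figure D2:**
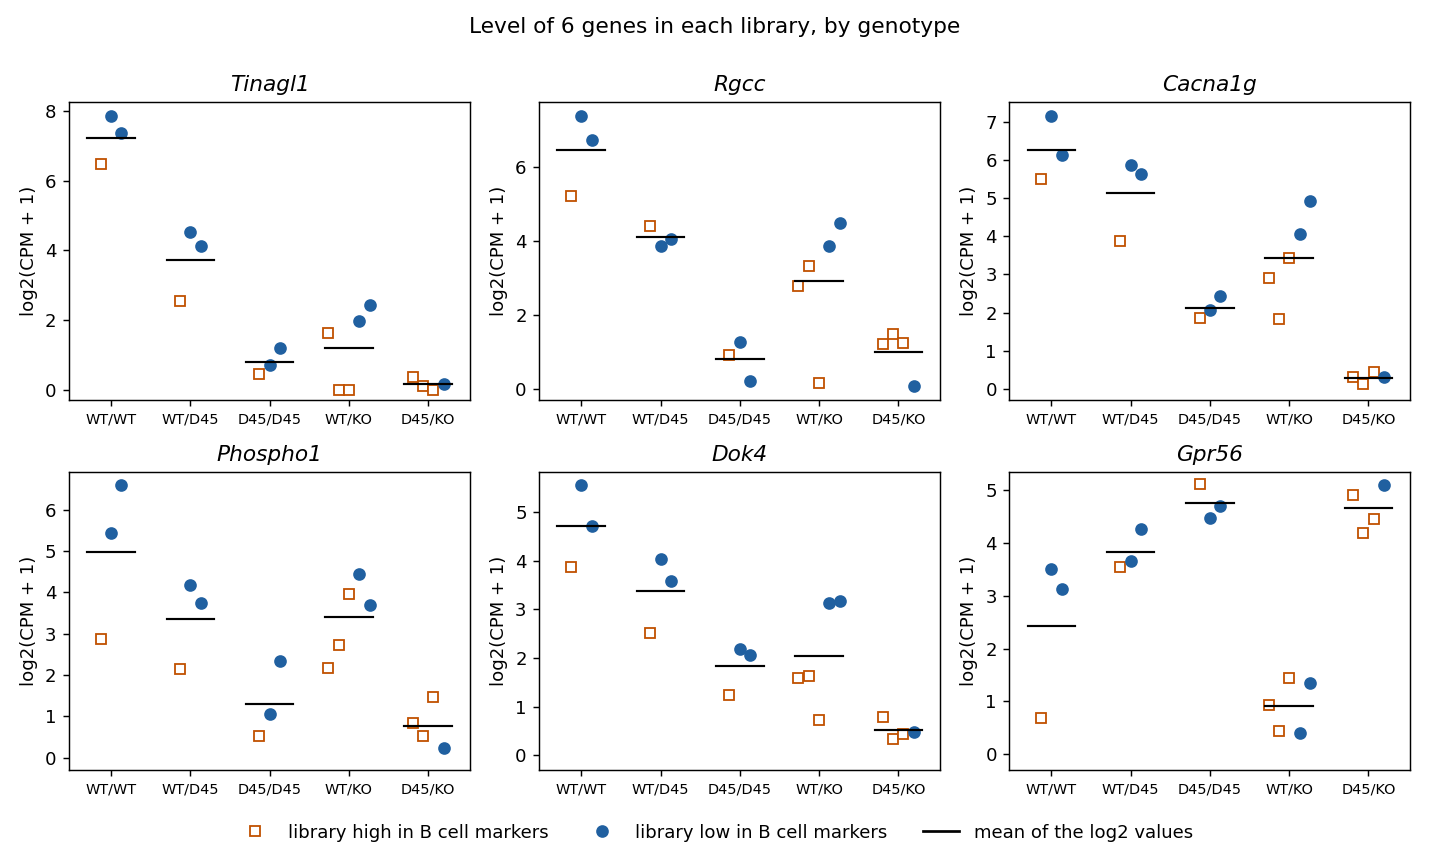
Level of 6 genes as log2(CPM + 1) in each of the 18 libraries (points), by Klf1 genotype on the x axis; open squares are libraries high in B cell markers, filled circles the others, and bars the mean of the log2 values. Tinagl1 steps from 89.2 to 232 CPM in WT/WT to 4.81 to 21.99 CPM in WT/D45 and 0.368 to 1.29 CPM in D45/D45, while Gpr56 runs the other way.

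A rule for named genes (an unadjusted p under 0.01, at least 5 CPM and no overlap) picked 1 gene in each direction. The lower one was Tnfrsf21, a death receptor of the tumour necrosis factor receptor family. It was at 32.4, 33.4 and 47.1 CPM in WT/WT and 19.96, 7.90 and 17.2 CPM in WT/D45 (log2 fold change -1.32 ± 0.42, unadjusted p = 0.00595 in edgeR, adjusted p = 1). Tnfrsf21 was at 14.9 to 22.6 CPM in D45/D45, level with WT/D45. The higher one was Recql, a DNA helicase, at 13.6, 6.81 and 8.97 CPM in WT/WT and 18.7, 21.5 and 21.5 CPM in WT/D45 (1.07 ± 0.35). D45/D45 had 13.9 to 19.99 CPM of Recql and WT/KO 10.2 to 18.3 CPM.

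Genes with higher estimates in WT/D45 included 3 that were higher again in D45/D45. Gpr56, an adhesion G protein-coupled receptor, was at 0.611, 10.3 and 7.69 CPM in WT/WT and 10.7, 11.6 and 18.2 CPM in WT/D45. The groups did not overlap, though second replicates were only 10.3 against 11.6 CPM, and the log2 fold change was 1.13 ± 0.75. Gpr56 was at 21.1 to 33.6 CPM in D45/D45 and at most 1.70 CPM in WT/KO. Glipr2 was at 9.45, 2.06 and 10.7 CPM against 23.8, 17.0 and 23.5 CPM (1.53 ± 0.59), and at 56.5 to 61.6 CPM in D45/D45. Reep6, which shapes the endoplasmic reticulum, was at 8.63, 3.48 and 6.29 CPM against 12.6, 17.9 and 25.9 CPM (1.61 ± 0.62), and at 30.1 to 37.9 CPM in D45/D45. In WT/KO, Glipr2 was at 4.85 to 41.8 CPM (mean 19.3) and Reep6 at 4.02 to 38.4 CPM (mean 17.9). Their means in WT/D45 were close to these, at 21.4 and 18.8 CPM, so the higher level was not particular to the D45 allele. Glipr2 and Reep6 were picked after their values were seen. Their distances from the midpoint of WT/WT and D45/D45 were 0.04 ± 0.50 and 0.41 ± 0.51 on the log2 scale, and that of Gpr56 was 0.08 ± 0.63.

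Klf5, a Krüppel-like factor of the same family as Klf1, was at 2.56, 0.554 and 1.86 CPM in WT/WT and 2.90, 7.79 and 7.57 CPM in WT/D45 (1.86 ± 0.82), without overlap. In D45/D45 Klf5 was at 1.79 to 3.36 CPM, which overlaps WT/WT. Atp11b, a phospholipid flippase subunit picked after its values were seen, was at 27.1, 7.13 and 16.2 CPM against 36.7, 30.003 and 52.4 CPM (1.24 ± 0.43), and D45/D45 had 11.4 to 29.5 CPM. These 2 genes were thus higher in WT/D45 than in the homozygote by their means. WT/KO had 29.9 to 45.8 CPM of Atp11b, level with WT/D45, and 0.917 to 3.75 CPM of Klf5.

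Over all genes, the level in WT/D45 was tested against the midpoint of WT/WT and D45/D45 on the log2 scale. Of 13405 genes, 0 (0%) passed in edgeR, with 168 at an unadjusted p under 0.05. By DESeq2 the count was 0 (193 at that unadjusted p) and by limma-voom 0 (146). The 3 smallest p-values belonged to Gm15663, Arhgef26 and Espnl, which were at 0 counts in all WT/WT libraries and averaged 0.5001, 0.825 and 0.708 CPM in WT/D45.

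Klf1 itself was at 452, 1047 and 964 CPM in WT/WT and 551, 1101 and 1295 CPM in WT/D45. Each WT/D45 library was above the WT/WT library of its number, by 0.07 to 0.43 on the log2 CPM scale, and the groups overlapped (log2 fold change 0.26 ± 0.64, with an approximate 95% interval from -0.997 to 1.51). The table counts reads of both alleles together and does not tell the D45 transcript from the wild-type one. Of 27 listed genes that flank Klf1, 25 were tested, with 14 above and 11 below 0 and a median of 0.11 against 0.10 for all genes.

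None of the known targets of Klf1 was called. Of 43 listed, 41 were tested; 10 had estimates above 0 and 31 below, with a median of -0.21 against 0.10 for all tested genes (7826 above and 5576 below). In 40 of the 41 the SE exceeded the estimate. Leaving out 1 library at a time moved the median between -0.61 (without WT/WT replicate 1) and 0.18 (without WT/D45 replicate 1). It was 0.16 without WT/WT replicate 3, -0.36 without WT/D45 replicate 3 and -0.44 without WT/D45 replicate 2, and 0.23 with library totals, so its direction was not stable. The median was -0.17, 0.11 and -0.40 between the first, the second and the third replicates. Bulk RNA does not tell fewer cells with a transcript from less of it per cell.

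In the membrane skeleton, Epb4.9 (dematin, which bundles actin) was at 665, 1906 and 1773 CPM in WT/WT and 496, 2009 and 1672 CPM in WT/D45. Its log2 fold change was -0.06 ± 0.79, with an interval from -1.60 to 1.48. Ank1 (ankyrin, which ties band 3 to spectrin) gave 0.06 ± 0.71 and Sptb (beta spectrin) gave 0.11 ± 0.81. Epb4.1 (protein 4.1) was at 1135, 6937 and 15725 CPM against 1151, 7626 and 4092 CPM (-0.89 ± 1.08), with the third replicates alone apart. The list as a whole had 25 members tested, 9 above and 16 below 0, and a median of -0.11. That median ran from -0.40 (without WT/WT replicate 1) to 0.21 (without WT/D45 replicate 1) with 1 library left out, and was 0.13 without WT/WT replicate 3. Its 1 of 25 members without overlap (2.86% of all genes lay wholly above) was Ldb1, a cofactor of erythroid transcription complexes, at 76.1 ± 20.7 CPM in WT/WT and 104 ± 1.63 CPM in WT/D45 (n = 3 each, 0.45 ± 0.25).

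Among membrane transporters, 32 were tested, with 17 above and 15 below 0 and a median of 0.04, which ran from -0.14 (without WT/D45 replicate 3) to 0.28 (without WT/D45 replicate 1) with 1 library left out. Slc4a1 (band 3, the anion exchanger) was at 8159, 28264 and 35627 CPM in WT/WT and 6591, 33864 and 25274 CPM in WT/D45 (-0.13 ± 1.38). Slc1a5, a neutral amino acid transporter, was at 216, 604 and 665 CPM against 158, 612 and 475 CPM (-0.25 ± 0.65). Aqp1, the water channel, gave -0.03 ± 0.72. Cacna1g, described above, had the lowest estimate of this list. The list of blood group and surface glycoproteins had 22 tested, 7 above and 15 below 0 and a median of -0.05. With 1 library left out this ran from -0.41 (without WT/WT replicate 1) to 0.26 (without WT/D45 replicate 1), at -0.32 without WT/D45 replicate 3 and 0.18 without WT/WT replicate 3. In this list Kel was at -0.09 ± 0.76, Icam4 at -0.03 ± 0.73 and Rhag at -0.05 ± 0.75.

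The haem synthesis and iron list had 28 tested, 9 above and 19 below 0, and a median of -0.21. With 1 library left out the median ran from -0.45 (without WT/WT replicate 1) to 0.09 (without WT/WT replicate 3), and it was 0.04 without WT/D45 replicate 1. Alas2, the erythroid enzyme that starts haem synthesis, was at 2806, 27041 and 57198 CPM in WT/WT and 2932, 27308 and 11851 CPM in WT/D45. The first and second replicates were level and the third differed 4.83-fold. Hbb-b1, an adult beta globin, followed the same form at 25602, 305265 and 639423 CPM against 25561, 302432 and 99816 CPM, and its log2 fold change of -1.18 had an SE of 3.58. Of the embryonic globins, Hbb-y was at 0.436 ± 0.469 and 0.412 ± 0.379 CPM and Hbb-bh1 at 0.086 ± 0.149 and 0.830 ± 0.492 CPM (SD, n = 3 each).

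Several genes far from WT/WT in D45/KO had overlapping levels in WT/WT and WT/D45. These were picked because earlier comparisons with D45/KO called them, so the contrast with D45/KO is a description. Scai was at 16.4, 9.19 and 15.8 CPM in WT/WT and 18.5, 20.3 and 14.3 CPM in WT/D45, against 75.2 to 118 CPM in D45/KO. Its log2 fold change in WT/D45 was 0.36 ± 0.31, with an interval from -0.25 to 0.96. Tmod3, which caps actin filaments, was at 51.1, 33.3 and 83.8 CPM against 56.2, 58.1 and 66.3 CPM (0.10 ± 0.39), and at 165 to 297 CPM in D45/KO. Prdx6, a peroxidase, was at 30.2, 23.6 and 36.9 CPM against 38.02, 22.6 and 19.7 CPM (-0.17 ± 0.30), and at 77.0 to 116 CPM in D45/KO. Clint1, a clathrin adaptor, gave the narrowest interval of these, 0.01 ± 0.24 (-0.47 to 0.49). In D45/D45, Scai was at 44.4 to 60.7 CPM, Tmod3 at 96.5 to 209 CPM, Prdx6 at 39.3 to 64.2 CPM and Clint1 at 50.2 to 57.0 CPM. These levels were above every WT/WT and WT/D45 library, so the rise was not particular to D45/KO.

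Podxl, a sialomucin, was at 2.68, 2.85 and 1.63 CPM in WT/WT and 5.09, 2.78 and 4.05 CPM in WT/D45 (0.73 ± 1.02), and at 55.2 to 152 CPM in D45/KO. Cish, a STAT5 target that dampens cytokine signalling, was at 6.30, 2.69 and 14.1 CPM against 8.09, 0 and 0.910 CPM, where D45/KO had 83.1 to 121 CPM. On the side of genes low in D45/KO, Nxpe2 was at 248, 479 and 430 CPM against 183, 322 and 522 CPM (-0.17 ± 0.62) and Snx22, a sorting nexin, at 121, 258 and 200 CPM against 53.8, 246 and 192 CPM (-0.24 ± 0.71). D45/KO had 8.69 to 17.6 CPM of Nxpe2 and 4.54 to 6.63 CPM of Snx22. The difference of the D45 effect beside WT and beside KO was tested over all genes, and 1 of 13405 (0.00746%) passed in edgeR, the predicted gene Gm16793. With the replicate number as a block in 18 libraries 0 passed. Gm16793 was at 6.54, 4.59 and 11.9 CPM in WT/WT and 3.91, 8.33 and 13.4 CPM in WT/D45 (0.16 ± 0.79).

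Among gene lists of cell state, the terminal erythroid maturation genes had 3 of 24 tested members above 0 and 21 below, with a median of -0.42. Bpgm, the enzyme that makes the haemoglobin regulator bisphosphoglycerate, averaged 12256 ± 12670 CPM in WT/WT and 5885 ± 5889 CPM in WT/D45 (SD, n = 3 each). Map1lc3b, an autophagy protein, averaged 688 ± 592 and 337 ± 187 CPM. The list median was -0.05 and 0.23 between the first and the second replicates and -1.15 between the third replicates. With 1 library left out it ran from -1.12 (without WT/D45 replicate 2) to 0.20 (without WT/WT replicate 3), and was 0.03 without WT/D45 replicate 1. The antioxidant list (4 above and 19 below 0 of 23, median -0.28) ran from -0.57 (without WT/WT replicate 1) to 0.01 (without WT/WT replicate 3). WT/WT replicate 3 was also the library with the largest globin share, and the part of this in the list medians was not tested.

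The S, G2 and M phase genes had 28 of 30 members above 0, all within their SE, with a median of 0.24. That median was -0.14, -0.07 and 0.71 between the first, the second and the third replicates, and -0.10 without WT/D45 replicate 3, so its direction turned with 1 library. Mki67, the proliferation marker, gave 0.26 ± 0.81. Of 22 G1/S regulators, 13 were above and 9 below 0 with a median of 0.18, which was -0.02 without WT/D45 replicate 3. Of these, 2 of 22 were below without overlap, against 1.19% of all genes. They were Rgcc and Ccnd1 (cyclin D1), the latter at 7.47 ± 1.45 CPM in WT/WT and 1.77 ± 1.83 CPM in WT/D45 (n = 3 each, -2.05 ± 1.05).

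**Figure D3:**
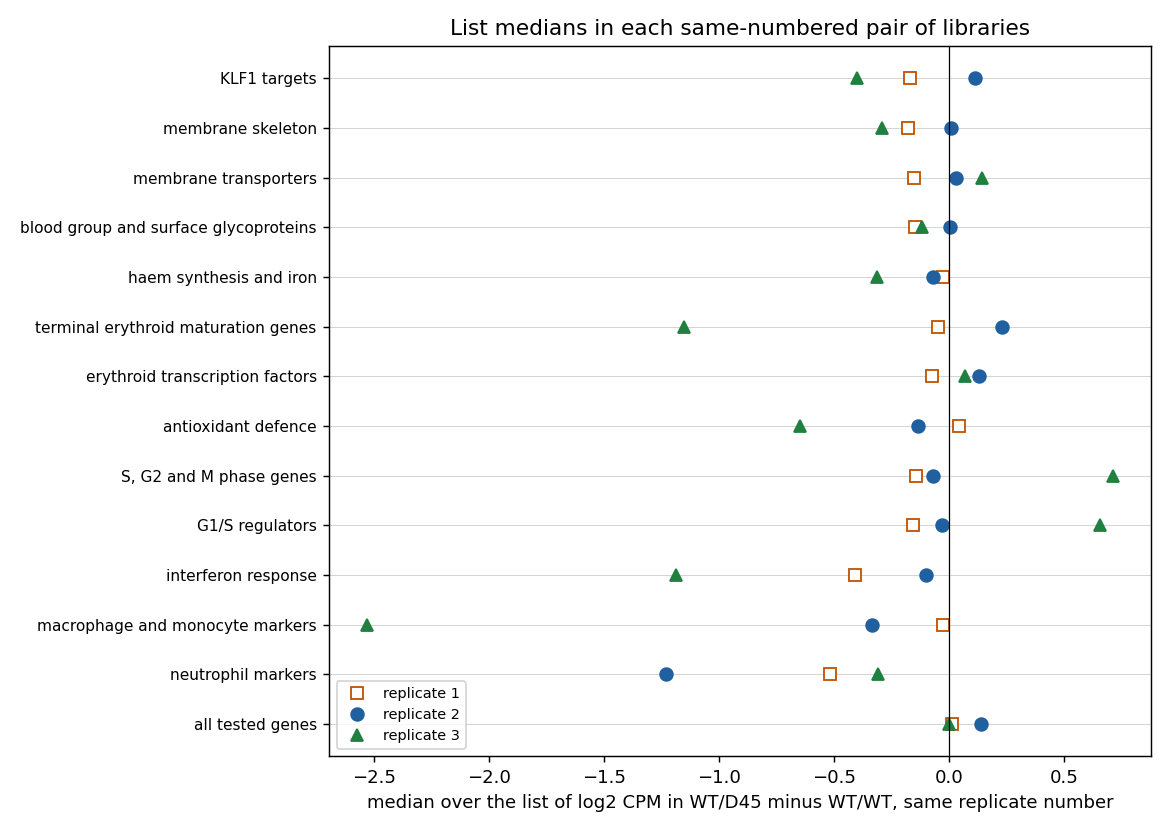
Median over each gene list of the log2 CPM difference, WT/D45 minus WT/WT, between libraries of the same replicate number (x axis); each symbol is 1 pair of libraries. The third pair lies far from the others for terminal maturation (-1.15), S, G2 and M phase genes (0.71) and macrophage markers (-2.53), and all 3 pairs lie below 0 for the interferon list.

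Interferon response genes had the lowest median among lists of processes, -0.67, with 24 of 27 tested members below 0 and 3 above. Parp14, a mono-ADP-ribosyltransferase outside the list and picked after its values were seen, was at 50.5, 60.3 and 87.5 CPM in WT/WT and 36.6, 36.2 and 42.9 CPM in WT/D45 (-0.78 ± 0.43), without overlap. Oas3, an oligoadenylate synthetase, averaged 283 ± 165.6 and 136 ± 68.9 CPM (-1.06 ± 0.85). None of the 27 was called, and 2 of the 27 (Rtp4 among them) did not overlap, against 1.19% of all genes. The list median was -0.41, -0.10 and -1.19 between the pairs, ran from -0.76 to -0.29 with 1 library left out (the highest without WT/WT replicate 3) and was -0.22 with library totals.

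Markers of macrophages and monocytes had lower estimates too. Of 17 listed and tested, 16 were below 0, with a median of -0.90. Their summed level was 282 to 507 CPM in WT/WT and 103 to 299 CPM in WT/D45, and none was at 0 in all 6 libraries. C1qa, a complement component of macrophages, was at 24.8, 43.4 and 59.0 CPM against 24.7, 20.2 and 10.9 CPM (-1.18 ± 1.08). Its first replicates were level. The markers below without overlap were 3 of 17 (C1qa, Mertk and Emr1), against 1.19% of all genes. With 1 library left out the median stayed below 0, from -1.29 (without WT/D45 replicate 1) to -0.57 (without WT/D45 replicate 3), and it was -0.27 with library totals. Between the first, the second and the third replicates it was -0.03, -0.33 and -2.53, so its size rested on the third pair. In 13 of the 17 the SE exceeded the estimate. Neutrophil markers had 11 of 15 tested members below 0, a median of -0.83 (-1.18 to -0.16 with 1 library left out, the highest without WT/WT replicate 2) and summed levels of 127 to 311 CPM against 91.5 to 162 CPM. The part of these cells in the estimates of interferon genes was not tested.

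B cell markers, by contrast, followed the replicate and not the genotype, with summed levels of 114 to 2371 CPM in WT/WT and 29.7 to 2711 CPM in WT/D45. All 17 tested were within their SE, and the median of 0.15 moved to 5.22 without WT/WT replicate 1 and to -5.85 without WT/D45 replicate 1. T and NK cell markers summed to 28.2 to 40.2 CPM and 18.1 to 47.0 CPM. Erythroid markers summed to 42900 to 759343 CPM in WT/WT and 40937 to 384779 CPM in WT/D45, and the first replicate of each genotype was the lowest.

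**Figure D4:**
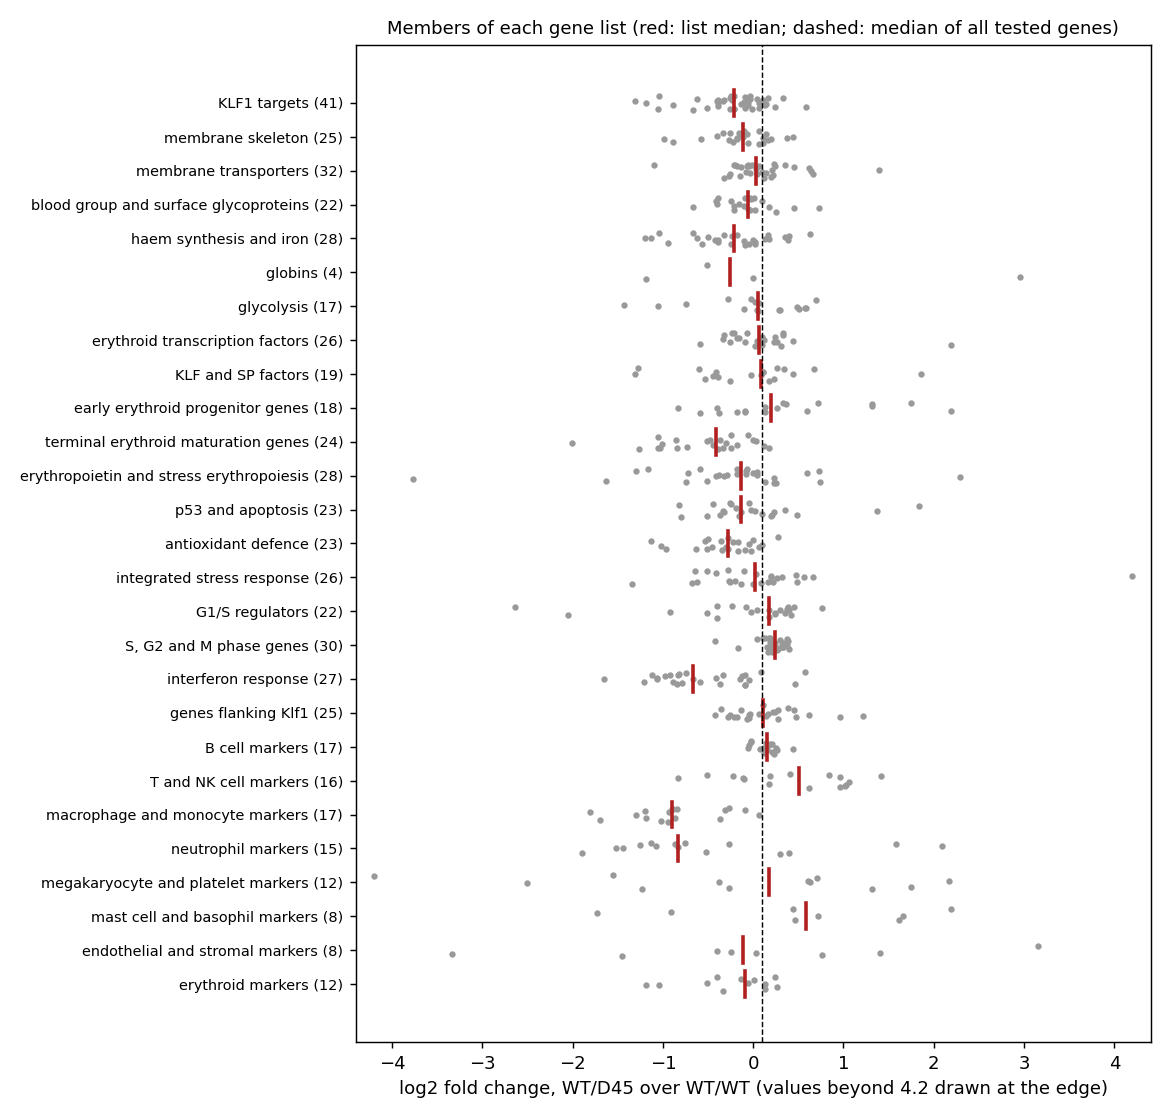
Log2 fold change in WT/D45 over WT/WT (x axis) of each tested member of 27 gene lists (grey points, number tested in parentheses), with the list median in red and the median of all tested genes, 0.10, as a dashed line. Interferon (-0.67), macrophage (-0.90) and neutrophil (-0.83) medians lie lowest, and the KLF1 target median is -0.21.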

How the data were processed

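RNA was measured in 18 libraries of sorted spleen erythroblasts (Trizol extraction and a Swift Rapid RNA library kit, per the labels). The deposited values are raw counts per gene symbol in 23365 rows. HISAT2, featureCounts, limma and mm9 appear in the submitters' processing notes, with no version or role, and the labels do not say whether strand was used or what was counted as a read. From 65.6% to 83.0% of nonzero counts up to 199 were even in the 6 libraries. Symbols turned into dates (27) and repeated symbols (2) are not named.

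Genes passing filterByExpr by genotype (13405) were fitted by genotype over all 18 libraries in R 4.3.3 with edgeR 4.0.16 (TMM, quasi-likelihood, non-robust). The call was a Benjamini-Hochberg adjusted p under 0.05. SE is the absolute log2 fold change over the square root of F, approximate most of all near 0 counts. Log2 CPM per library used a prior count of 2. The fit was tested on simulated data. Libraries of the same replicate number are set side by side, though the labels state no pairing. Deviations of same-numbered WT/WT and WT/D45 libraries correlated at 0.71, 0.22 and 0.12. WT/D45 replicate 3 deviated more like WT/WT replicate 2 (0.30), so these values mark a pair for replicate 1 only.

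The members, a panel of 41 genes (40 tested) and 27 gene lists were chosen with earlier results of these data known. Named genes are Klf1, the panel, genes called, up to 10 each way with an unadjusted p under 0.01, at least 5 CPM and no overlap, up to 2 each way per list with an unadjusted p under 0.05, and leading genes of the other contrasts; some are left out for length or are not reported here. Lats2, Glipr2, Reep6, Atp11b, Parp14, Oas3, C1qa, Mki67, E130309D14Rik and other list members were picked after their values were seen. Alternatives were DESeq2 1.42.0, limma 3.58.1 (voom), other scalings, filters, covariates, blocks and libraries left out.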

Additional observations from a re-analysis of the deposited data

Results flagged for a closer look

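Gm16793, a predicted gene, was the 1 gene whose D45 effect beside WT differed from that beside KO in edgeR fitted by genotype alone (8.73 ± 1.27 on the log2 scale, adjusted p = 0.0400). The 3 WT/WT libraries held 438 counts of it and the 3 WT/D45 libraries 817, with overlapping levels. The 5 WT/KO libraries held 900 counts and the 4 D45/KO libraries 2 (both in replicate 1), a pooled ratio of D45/KO over WT/KO of 0.00307 with an exact interval for counting error from 0.000371 to 0.0111. If mates of a pair were counted as separate reads, which the even counts leave possible, the 2 counts could be 1 fragment and this interval would be too narrow. The fitted difference depends on the near-zero D45/KO group and is no bound. The call was lost in edgeR with the replicate block in 18 libraries (0 genes called) and with the mouse identifier as covariate (0), while the B cell marker covariate called 22 genes, Gm16793 among them. With 1 library left out of the 6, the call held without WT/D45 replicate 1 and was lost in each of the other 5 cases.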

How the results depend on the processing

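The count of genes called in WT/D45 against WT/WT was 0 in 20 of 23 other fits. It was 1 with the replicate block in 6 libraries, 2 in mice with an identifier under 200 and 3 in libraries low in B cell markers (chosen after seeing the data). Leaving out 1 library gave 0 to 0 calls, with 91 to 1007 genes at an unadjusted p under 0.05. The contrast with the midpoint gave 0 calls in every fit made. The contrast between partner alleles gave 15 calls with DESeq2, 0 with limma-voom, 6 with voom and library weights, 2 with library totals, 22 with the B cell marker covariate, 0 with the mouse identifier as covariate and 0 with the replicate block in 18 libraries, and 0 to 1 with 1 library left out; the cause was not tested. In mice with an identifier under 200 alone (1 library of each genotype), Cish was at 0.38, Ccnt1 at -0.0540 and C1qa at 0.00985 on the log2 fold scale, opposite in sign to their values in all libraries (-1.30, 1.26 and -1.18). With 3 libraries a genotype and a median SE of 0.82, most estimates cannot be told from 0.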

Other observations

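The remaining lists are given by members above 0 and by median, beside 0.10 for all genes. Erythroid transcription factors had 16 of 26 tested members above 0 (median 0.06), KLF and SP factors 10 of 19 (0.09), glycolysis 11 of 17 (0.05), the integrated stress response 13 of 26 (0.02), p53 and apoptosis 9 of 23 (-0.13), erythropoietin and stress erythropoiesis 10 of 28 (-0.13), and early erythroid progenitor genes 11 of 18 (0.20). Megakaryocyte and platelet markers had 6 of 12 above 0 (0.17), mast cell and basophil markers 6 of 8 (0.59), T and NK cell markers 11 of 16 (0.51), endothelial and stromal markers 4 of 8 (-0.11), erythroid markers 5 of 12 (-0.09) and globins 2 of 4 (-0.26). No member of these lists was called, and leaving out 1 library turned the sign of the median in each of these lists. The 4 globins tested were Hbb-b1 and embryonic genes, without Hba-a1 and Hba-a2.

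E130309D14Rik, an unnamed transcript, was at 30.5, 14.3 and 44.98 CPM in WT/WT and 34.3, 199 and 118 CPM in WT/D45. Its first replicates were level, and D45/D45 had 107 to 220 CPM. Ccnt1, cyclin T1, averaged 11.8 ± 5.19 CPM in WT/WT and 28.5 ± 12.1 CPM in WT/D45 (SD, n = 3 each, log2 fold change 1.26 ± 0.39), with overlapping groups. Both were picked after their values were seen.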
